A study of Mus musculus with 9 samples.

Results

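Cytosolic ribosomal proteins were examined across 9 transcriptomes of mouse macrophages. The members were taken by symbol, as genes named Rpl or Rps followed by a number, the acidic stalk genes Rplp0, Rplp1 and Rplp2, and Rpsa. Ribosomal protein S6 kinases and symbols marked as pseudogenes (-ps) were left out. The pattern matched 92 genes, and 88 of them reached at least 1 TPM (the transcript abundance unit of kallisto, a length-normalised share of the library) in at least 3 of the 9 libraries. These 88 stood among 11133 genes that passed the same filter, of 29763 named genes in the table. They comprised 77 genes of subunits of the cytosolic ribosome, 46 of the large and 31 of the small subunit. The other 11 were 5 paralogs of subunits, 4 retrocopies (processed copies inserted elsewhere in the genome), the assembly factor Rpl7l1 and Rps19bp1, a binding protein of Rps19 that is not a subunit. Rps4l, counted here as a paralog, is annotated as a transcribed processed pseudogene and could also be counted as a retrocopy. Below, "subunit genes" means the 77 and "members" the 88.

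The cytosolic ribosome joins a small subunit, which decodes the mRNA, to a large subunit, which forms the peptide bond. Its proteins are made in near-equal amounts and are assembled on ribosomal RNA in the nucleolus. Their mRNAs are short and very abundant and begin with a C and a run of pyrimidines, the 5′ terminal oligopyrimidine (TOP) tract. Through this tract their translation depends on mTORC1, a kinase complex that senses nutrients and growth factors.

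The cells were bone marrow-derived macrophages, grown from mouse marrow over 7 days in medium with 30% L929 supernatant and then given interferon-gamma at 40 ng/ml for 12 h. All 3 genotypes had this treatment and no untreated library was analysed here. There were 3 libraries of wild-type cells (WT), 3 of cells deficient in Ndufa4l3-miR147, also called Nmes1 (Ndufa4l3-miR147 KO), and 3 of cells deficient in Ndufa4 (Ndufa4 KO), a protein of mitochondrial complex IV. Per the labels, the 3 libraries of a genotype are technical replicates, so the p-values measure only the spread between libraries and not between mice.

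The gene of the first knockout, listed as AA467197, stood at 355 to 365 TPM in WT, at 2.21 to 4.50 TPM in the Ndufa4l3-miR147 KO and at 472 to 527 TPM in the Ndufa4 KO. Ndufa4 was listed at 0 or, in 2 libraries, at 0.303 TPM in WT and 0.621 TPM in the Ndufa4l3-miR147 KO, so the table gives no check of the Ndufa4 KO label. Replicate 3 of the Ndufa4 KO stood apart from the rest. Over all genes kept its median absolute log2 difference from the other libraries was 0.207 to 0.273, against 0.0739 to 0.177 among the other 8. Results are therefore given with and without it. Macrophage markers were present in all libraries (9 of 9 markers kept, summing to 9000 to 10353 TPM). Markers of lymphocytes summed to 2.38 to 3.14 TPM, neutrophil markers to 1.47 to 79.9 TPM, erythroid markers to 15.8 to 273 TPM and fibroblast markers to 6.45 to 130 TPM. The number of reads behind a value cannot be recovered from TPM, and sequencing depth is therefore unknown. In such bulk samples, fewer cells of a type and less RNA per cell cannot be told apart.

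Promoter sequence was matched by symbol for 65 of the 88 members in RefSeq (build GRCm38.p6), 57 of them subunit genes. Windows are shown for 5 genes that passed a test below, from 40 bases before the annotated start to base 25 from it, 5′ to 3′. Capitals mark each run of a C and at least 4 pyrimidines (C or T) that begins within 20 bases of the start.
Rpl12, chr2:32961672-32961736, plus strand: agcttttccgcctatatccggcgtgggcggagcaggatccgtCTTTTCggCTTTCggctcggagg
Rpl14, chr9:120571477-120571541, plus strand: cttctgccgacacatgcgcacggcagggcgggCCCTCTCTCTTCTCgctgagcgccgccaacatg
Rpl36a, chrX:134585614-134585678, plus strand: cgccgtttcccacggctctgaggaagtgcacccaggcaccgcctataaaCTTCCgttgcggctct
Rps13, chr7:116334166-116334230, minus strand: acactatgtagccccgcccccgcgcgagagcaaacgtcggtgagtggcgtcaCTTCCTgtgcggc
Rps24, chr14:24490638-24490702, plus strand: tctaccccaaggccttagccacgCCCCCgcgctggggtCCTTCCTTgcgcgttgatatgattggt
Each of the 5 windows held such a run near the start, the longest in Rpl14. The annotated start base was itself a C followed by at least 4 pyrimidines in 13 of 57 subunit genes (22.8%). The share was 2.91% of the 8272 genes kept that had an entry. The whole run could begin before the start base, as in Rpl14. Within 20 bases of the start the shares were 80.7% of the subunit genes and 55.3% of all genes kept. In the whole entry of 300 bases, CCGGAAG, the core of ETS family sites, was found on either strand in 42.1% of subunit genes and in 21.7% of all genes kept. AAGATGGC (the YY1 core), GGGCGG (the GC box) and TATAAA (the TATA box) were found on either strand in 8.77%, 61.4% and 10.53% of subunit genes, and in 5.78%, 69.4% and 8.29% of all genes kept. A match is a description of letters and was not tested for binding.

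Subunit mRNAs were among the most abundant in these macrophages. The median subunit gene had a mean of 896.8 TPM over the 9 libraries, with quartiles of 627 and 1271 TPM, against a median of 18.7 TPM over all genes kept. Among the 500 most abundant genes were 70 of the 77. The median was 854 TPM for the large subunit and 913 TPM for the small subunit, and 53 of the 77 lay between 500 and 1500 TPM.

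Rplp1, one of the acidic proteins of the stalk that recruits elongation factors, was the most abundant member with a mean of 3639 TPM, the 23rd highest of all genes kept. In WT its 3 libraries held 3654, 3504 and 3432 TPM, in the Ndufa4l3-miR147 KO 3395, 3488 and 3491 TPM and in the Ndufa4 KO 3447, 3863 and 4480 TPM. All but the last lay within 3395 to 3863 TPM, and the genotypes overlapped. Rps14 (2045 TPM), Rpl10 (2039 TPM) and Rps2 (1959 TPM) followed, then Rps24 (1871 TPM) and Rpl41 (1813 TPM). The order within these 5 is not firm, since Rpl10 ranged from 1940 to 2119 TPM and Rps14 from 1898 to 2404 TPM between libraries. The partner stalk proteins were lower, Rplp0, which anchors the stalk to the ribosome, at 1268 TPM and Rplp2 at 427 TPM. Rpsa, a small-subunit protein also known as the laminin receptor, stood at 429 TPM.

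**Figure D1:**
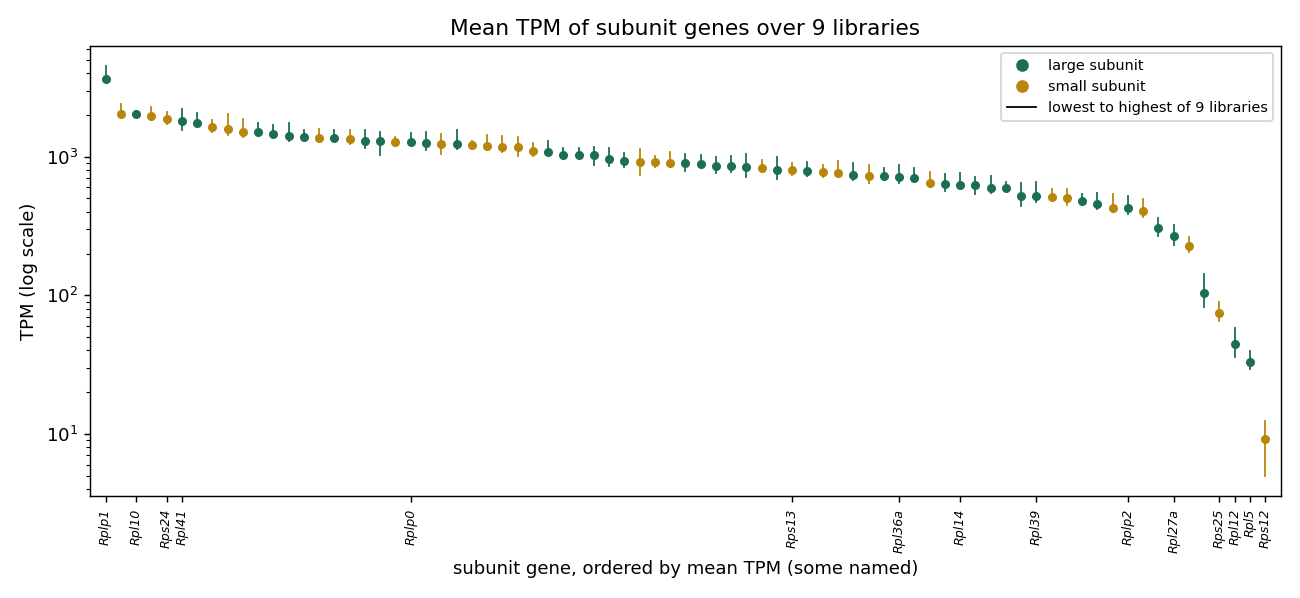
Mean TPM of each of the 77 subunit genes (log axis), ordered from the highest to the lowest, with lines from the lowest to the highest of the 9 libraries and names for some genes. Most genes form a shallow slope between 500 and 1500 TPM, and 5 genes at the right end lie under 200 TPM.

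Among the 5 subunit genes under 200 TPM were Rps25 (74.97 TPM), Rpl12 (44.2 TPM), Rpl5 (33.0 TPM) and Rps12 (9.19 TPM). They were chosen for description after their values were seen. For Rpl12, a protein of the stalk base, and Rpl5, a carrier of 5S ribosomal RNA, the table also lists a copy elsewhere in the genome whose transcript is identical over at least 95% of the aligned bases. Such copies can take reads from the gene when reads are assigned to transcripts. The copy Gm10275, an annotated pseudogene on chromosome 10, matched Rpl12, on chromosome 2, over 634 bases with 100% identity and stood at 1526 TPM. Rpl12 itself held 2.82% of the sum of both (2.39% to 3.26% over the libraries). Gm15500, on chromosome 7, matched Rpl5, on chromosome 5, over 1018 bases with 100% identity and stood at 871 TPM.

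Rpl27a showed the same picture to a lesser degree, with 267 TPM on the gene and 1005 TPM on its identical copy Gm7536. The first 60 coding bases of Rpl12 and of its copy, and a stretch of Rpl37 (coding bases 219 to 278) with its near-identical retrocopy Rpl37rt, are shown to make plain how little separates such pairs. The sequences are from GENCODE M21 (GRCm38), and capitals mark the only coding base at which Rpl37 and Rpl37rt differ, G249A, counted from 1 at the start codon of Rpl37.
Rpl12: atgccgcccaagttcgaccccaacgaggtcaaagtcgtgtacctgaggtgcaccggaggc
Gm10275: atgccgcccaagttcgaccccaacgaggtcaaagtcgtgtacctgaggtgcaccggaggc
Rpl37: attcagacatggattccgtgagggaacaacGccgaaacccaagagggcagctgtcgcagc
Rpl37rt: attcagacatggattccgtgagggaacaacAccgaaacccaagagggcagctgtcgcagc
Of the members, 42 had at least 1 such copy at 1 TPM or more, and 8 copies reached 100 TPM. The other 5 of these were Rpl31-ps8 (635 TPM), Rpl10-ps3 (282 TPM), Rpl15-ps3 (267 TPM), Rps16-ps2 (245 TPM) and Rpl28-ps1 (245 TPM). Rps23-ps, whose sequence was not searched, stood at 1091 TPM beside 405 TPM for Rps23. For these members the level of the single gene is uncertain. For Rps12 and Rps25 no copy of 100 TPM or more was found. Of the genes kept, 460 were not searched, so such a copy could have been missed.

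Paralogs of subunits, with Rps4l counted among them, were lower than their partners in 4 of 5 pairs. Rpl22l1 stood at 248 TPM beside 593 TPM for Rpl22, Rps27l at 418 TPM beside 1244 TPM for Rps27, Rps4l at 6.36 TPM beside 1218 TPM for Rps4x and Rpl3l, a muscle form, at 1.59 TPM beside 929.1 TPM for Rpl3. Rpl36al was the exception, with 963 TPM beside 719 TPM for Rpl36a. The assembly factor Rpl7l1 had 78.9 TPM beside 593 TPM for Rpl7, and Rps19bp1 had 66.3 TPM beside 913 TPM for Rps19. The lowest members kept were Rps3a3 (1.47 TPM), Rpl3l and Rps3a2 (1.78 TPM).

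The members together made up 7.93% to 9.77% of the listed TPM of a library. Their summed TPM was 75344, 75610 and 73917 in the WT libraries and 72719, 74728 and 74538 in the Ndufa4l3-miR147 KO. In the Ndufa4 KO it was 75943, 78432 and 89996. Replicate 3 of the Ndufa4 KO was thus 20.1% above the WT mean, and the other 8 libraries lay between 72719 and 78432. The group means were 74957 ± 910 TPM in WT, 73995 ± 1110 TPM in the Ndufa4l3-miR147 KO and 81457 ± 7499 TPM in the Ndufa4 KO (SD, n = 3). The Ndufa4 KO mean was 8.67% above WT, and 2.98% above it without replicate 3 (77188 TPM). Large- and small-subunit genes gave the same order of libraries at the top. The large subunit summed to 51586 TPM and the small subunit to 36362 TPM in replicate 3 of the Ndufa4 KO, against at most 44601 and 31942 TPM elsewhere. The ratio of small to large lay between 0.704 and 0.740 in all 9 libraries.

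**Figure D2:**
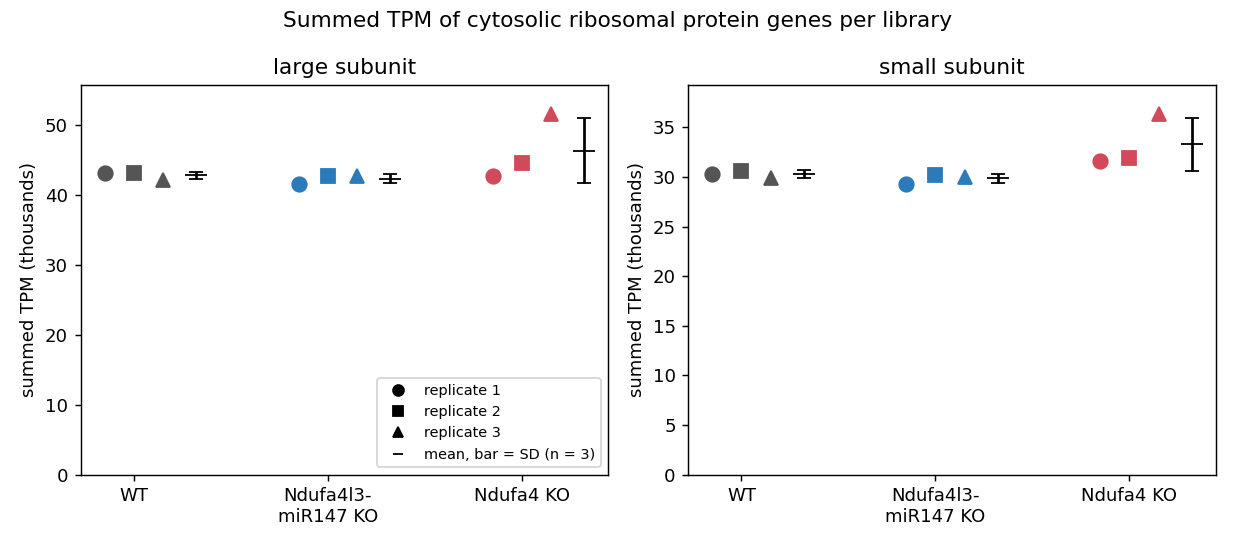
Summed TPM of the large-subunit (left) and small-subunit (right) genes in each library, as points, with the mean and SD of each genotype beside them. The third Ndufa4 KO library is the highest in both panels, at 51586 and 36362 TPM, and is 20.6% and 20.03% above the WT mean.

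Gene by gene, the median subunit gene in replicate 3 of the Ndufa4 KO was 0.27 above its WT mean on the log2(TPM + 1) scale, and 76 of 77 were above it. It was the highest of the 9 libraries for 70 of the 77. In the other 8 libraries the median deviation ran from -0.04 to 0.07. The same library differed by transcript length: other genes with transcripts under 1000 bases deviated by a median of 0.01, and those of 3000 bases or more by -0.36. Subunit transcripts are short, with a median of 711.5 bases against 2014 bases for all genes kept. Against the mean of replicates 1 and 2 of its own genotype, replicate 3 was higher by a median of 0.21 for subunit genes and 0.05 for the other 2348 short genes, and lower for the 3188 long genes (-0.31). With a trend in length and GC content removed from each library, the subunit genes' median change in the Ndufa4 KO against WT was 0.08 in place of 0.12, and their median difference between the knockouts was -0.09 in place of -0.15. Replicates 1 and 2 also differed from each other for single genes. Replicate 1 minus replicate 2 ran from -0.86 for Rps12, -0.43 for Rpl27 and -0.31 for Rps19 to 0.54 at the other end. The coefficient of variation of the median subunit gene was 2.15% in WT, 2.75% in the Ndufa4l3-miR147 KO and 9.91% in the Ndufa4 KO.

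**Figure D3:**
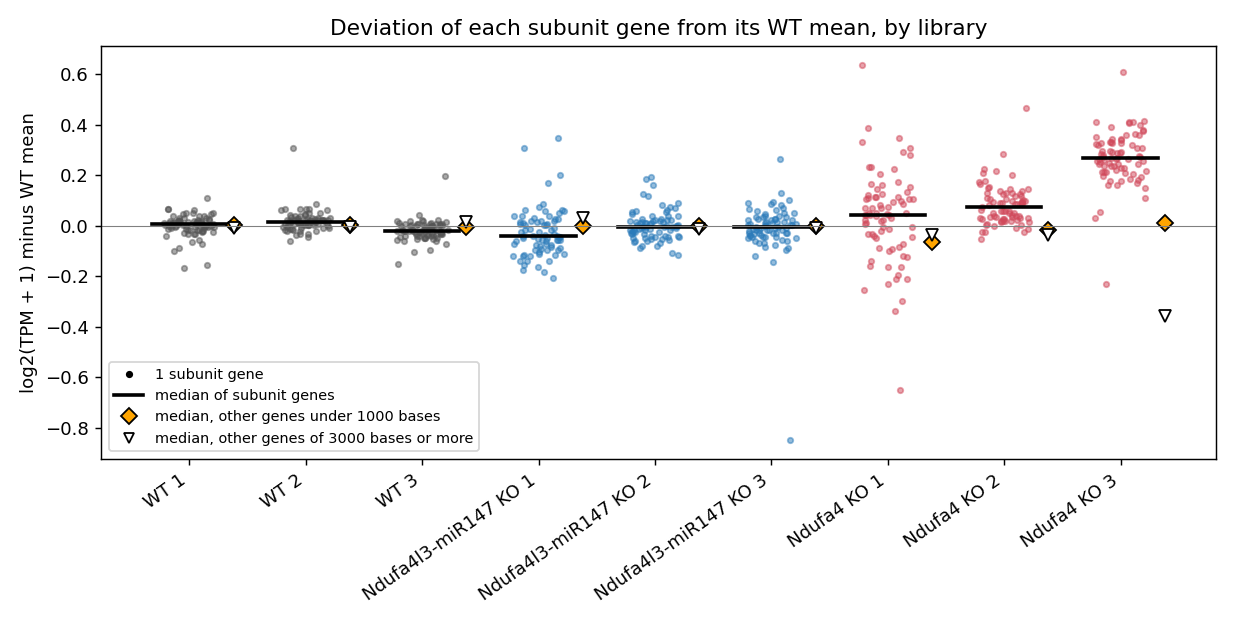
Difference of log2(TPM + 1) from the WT mean for each of the 77 subunit genes in each library, with their median (line) and the medians of other short and other long transcripts. The third Ndufa4 KO library stands highest with a median of 0.27, while its long transcripts stand at -0.36.

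The first comparison asked whether loss of Ndufa4l3-miR147 changed ribosomal protein mRNAs, and no member passed the test. Of the 88 members, 0 rose and 0 fell in the Ndufa4l3-miR147 KO against WT (limma, Benjamini-Hochberg adjusted p under 0.05 over 11133 genes), where 0.431% of all genes passed (0.243% higher, 0.189% lower). At an unadjusted p under 0.05 there were 2 members, and 917 of the 11133 genes kept. The median change of the members was -0.02 (all genes 0.00), and subunit genes ran from -0.15 to 0.15. In 2 members the KO libraries all lay above WT, where 11.9% of all genes did so, and in 10 they all lay below, where 12.0% did so.

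The smallest adjusted p belonged to Rpl22l1, the paralog of Rpl22. It held 268, 262 and 268 TPM in WT, 255, 230 and 229 TPM in the Ndufa4l3-miR147 KO and 250, 235 and 237 TPM in the Ndufa4 KO. Both knockouts lay below all WT libraries. The log2 differences were -0.16 ± 0.05 (SE, adjusted p = 0.38) and -0.14 ± 0.05 (adjusted p = 0.12), and neither passed the test. Rps4l followed at -0.32 ± 0.14 (adjusted p = 0.60), then Rpl12 at 0.15 ± 0.08 and Rps7 at -0.08 ± 0.05, with adjusted p of 0.73 and 0.77. Without replicate 3 of the Ndufa4 KO, which enters the shared spread, 0 members passed and 4 had an unadjusted p under 0.05, while 1.78% of all genes passed (0.997% higher, 0.781% lower). Of the 11133 genes kept, 1682 had an unadjusted p under 0.05 there.

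The second comparison set the Ndufa4 KO against WT. Here 5 of the 88 members rose, among them Rpl12, Rps24, Rps13 and Rpl36a, by 0.18 to 0.47 on the log2 scale, and 0 fell. Over all genes kept 8.59% passed, 2.83% higher and 5.76% lower. The members' median change was 0.12 against -0.08 for all genes, and 78 of 88 had a positive change. Of the subunit genes 2 of 46 in the large and 3 of 31 in the small subunit passed, and of the other 11 members none did. The KO libraries all lay above the WT libraries in 38 members, all of them subunit genes, where 9.4% of all genes did so. They all lay below in 1 member, Rpl22l1, where 21.7% of all genes did so. Another scaling moves the balance of all genes: with median-of-ratios scaling 492 genes rose and 442 fell in place of 315 and 641, the median over all genes was -0.01 in place of -0.08, and the members' median was 0.19. With the length and GC trend removed, the members' median was 0.06 (all genes -0.07), and 66 of 88 were positive.

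Without replicate 3, 6 members rose and 0 fell (5.54% and 8.7% of all genes, 14.2% in all). Of these, 4 had also risen with all libraries, among them Rpl12, Rps24 and Rpl36a, and Rpl14 and Rpl39 had not. Rps13 then had an adjusted p of 0.052. The members' median change fell to 0.05 (all genes -0.03), and 58 of 88 were positive. The 38 subunit genes that lay above WT in all Ndufa4 KO libraries necessarily did so in both remaining ones, which is no further support. No other subunit gene joined them, while the share of all genes was 18.2%. The count of members that rose also moved with other libraries. It was 0 without WT replicate 2 or 3, 1 without WT replicate 1 or Ndufa4l3-miR147 KO replicate 2 or 3, 2 without Ndufa4l3-miR147 KO replicate 1, 11 without Ndufa4 KO replicate 1 and 15 without Ndufa4 KO replicate 2. The count of all genes that passed moved in these fits too, over the range given below under dependence on the processing. Its share in each fit is not given here, so no single count can be set against its own background. Whether the members' counts moved more than those of other genes was not tested.

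Rpl12 had the largest change among the members that passed. Its libraries held 39.4, 37.6 and 36.1 TPM in WT, 38.7, 42.2 and 45.4 TPM in the Ndufa4l3-miR147 KO and 48.2, 52.4 and 58.0 TPM in the Ndufa4 KO. The Ndufa4 KO lay above every other library, by 0.47 ± 0.08 over WT (SE, adjusted p = 0.012) and by 0.41 ± 0.07 without replicate 3 (adjusted p = 0.011). The call was lost without WT replicate 2 (adjusted p = 0.058) or WT replicate 3 (adjusted p = 0.059). This gene holds a small share of its family's TPM. With Gm10275 added, the sum was 1494.5 ± 15.4 TPM in WT and 1680 ± 129 TPM in the Ndufa4 KO (SD, n = 3), a change of 0.16 ± 0.05 that did not pass (adjusted p = 0.087). Without replicate 3 the change of the sum was 0.10 (adjusted p = 0.037). With all near-identical copies added to their genes, 4 of the 84 members left rose and 0 fell (8.71% of all genes passed, 2.86% higher and 5.85% lower).

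Rps24, a small-subunit protein mutated in some Diamond-Blackfan anaemia, held 1792, 1812 and 1767 TPM in WT and 2009, 1967 and 2099 TPM in the Ndufa4 KO. Its 3 KO libraries differed by less from each other than from WT, with a change of 0.18 ± 0.04 (adjusted p = 0.038) and of 0.15 ± 0.04 without replicate 3 (adjusted p = 0.033). In the Ndufa4l3-miR147 KO it held 1718, 1820 and 1854 TPM, around the WT values.

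Rps13 held 732, 768 and 740 TPM in WT and 907, 797 and 894 TPM in the Ndufa4 KO, a change of 0.21 ± 0.05 (adjusted p = 0.044). Rpl36a held 693, 674 and 650 TPM in WT and 789, 733 and 874 TPM in the Ndufa4 KO, a change of 0.24 ± 0.06 (adjusted p = 0.045). In the Ndufa4l3-miR147 KO both stayed near WT, Rps13 at 766 to 791 TPM and Rpl36a at 673 to 702 TPM. Rps24, Rps13 and Rpl36a lost the call without any 1 of the WT libraries, with adjusted p of 0.10 to 0.16. Rps13 and Rpl36a also lost it without any 1 of the Ndufa4l3-miR147 KO libraries (adjusted p of 0.074 to 0.079) or without Ndufa4 KO replicate 1 (0.062 to 0.072). Rps24 lost it without replicate 2 (0.073) or 3 (0.062) of the Ndufa4l3-miR147 KO. Of all 26 alternative settings, Rps13 lost the call in 17, Rpl36a in 14 and Rps24 in 13. All of these genes lost it without a filter, with quantile normalization, without an intensity trend, with the replicate block and with only the 2 genotypes compared. Rpl36al, the paralog of Rpl36a, held 785, 996 and 1093 TPM in the Ndufa4 KO, spanning its WT range of 954 to 995 TPM (-0.04 ± 0.10, adjusted p = 0.81).

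**Figure D4:**
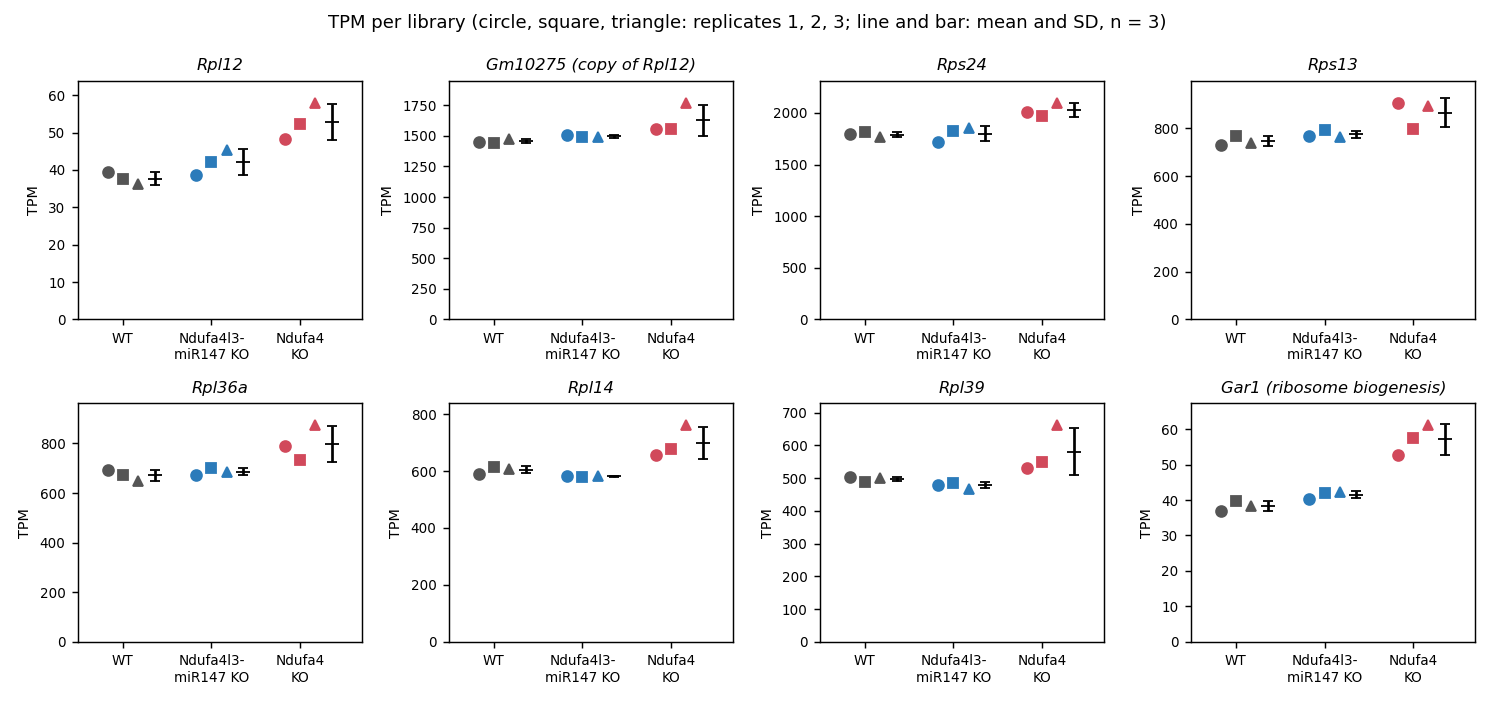
TPM in each library for 6 subunit genes, the Rpl12 copy Gm10275 and the ribosome biogenesis gene Gar1, with the mean and SD of each genotype. In all 8 panels the 3 Ndufa4 KO libraries lie above the 3 WT libraries; the scale of each panel differs, and Rpl12 lies under 60 TPM while its copy lies at 1443 TPM or more.

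The abundant members that did not pass showed small differences. Rplp0 held 1290, 1321 and 1474 TPM in the Ndufa4 KO and 1200 to 1244 TPM in WT, a difference of 0.16 ± 0.05 (adjusted p = 0.094). Rps6, the substrate of the S6 kinases, held 1499, 1331 and 1550 TPM against 1264 to 1294 TPM in WT, a difference of 0.19 ± 0.06 (adjusted p = 0.075). Rpsa differed by 0.22 ± 0.08 (adjusted p = 0.11), Rplp1 by 0.15 ± 0.08 (adjusted p = 0.29) and Rplp2 by 0.12 ± 0.09 (adjusted p = 0.44). Some subunit genes did not follow the rise of Ndufa4 KO replicate 3, among them Rpl10, Rpl5 and Rps12. Their log2(TPM + 1) deviations from the WT mean there were 0.03, 0.05 and -0.23 (subunit median 0.27). The Rpl10 entry without its copy held 2086, 1953 and 2068 TPM in the Ndufa4 KO against 1940 to 2119 TPM in WT (0.01 ± 0.05, adjusted p = 0.93). With its identical copy Rpl10-ps3 added, the Ndufa4 KO held 2513, 2197 and 2553 TPM and WT 2232 to 2271 TPM. With near-identical copies added the difference was 0.10 ± 0.06 (adjusted p = 0.29). The part played by the split of reads between identical sequences was not tested. The lowest change among subunit genes was that of Rps12, -0.22 ± 0.31 at 5.86 to 11.4 TPM.

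**Figure D5:**
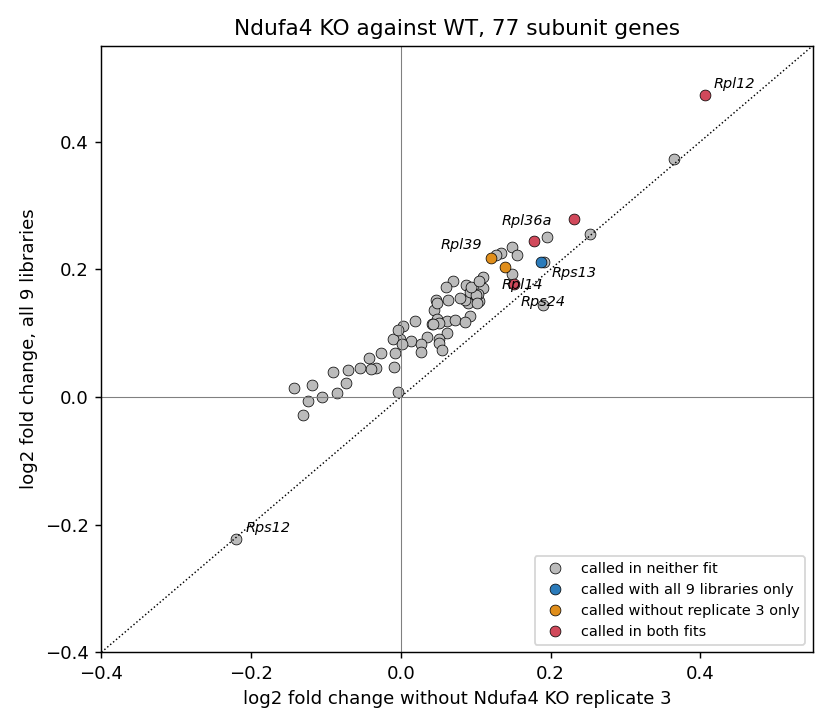
Log2 fold change of the 77 subunit genes in the Ndufa4 KO against WT with all 9 libraries (vertical axis) and without Ndufa4 KO replicate 3 (horizontal axis), with the dotted line of equality. Of the 77 points, 75 lie above the line, and the median over members falls from 0.12 to 0.05 when replicate 3 is left out.

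The third comparison set both knockouts against each other. Rpl14, a large-subunit protein, was lower in the Ndufa4l3-miR147 KO (581, 580 and 584 TPM) than in the Ndufa4 KO (655, 678 and 762 TPM), with 591, 615 and 609 TPM in WT. The 2 knockouts lay on either side of the WT libraries without overlap, and the difference between them was -0.26 ± 0.06 (adjusted p = 0.043). It was the only 1 of the 88 members that passed, where 3.24% of all genes passed, 1.04% lower and 2.2% higher. With median-of-ratios scaling 148 genes were lower and 146 higher, in place of 116 and 245, and Rpl14 did not pass (adjusted p = 0.072). The members' median difference was -0.14 (all genes 0.07), 81 of 88 were negative, and in 35 members the Ndufa4l3-miR147 KO libraries all lay below the Ndufa4 KO libraries (6.98% of all genes). In 0 members they all lay above (18.3% of all genes). Rps7, Rps24 and Rpl12 came next with differences of -0.20 ± 0.05, -0.17 ± 0.04 and -0.32 ± 0.08, and adjusted p of 0.062, 0.069 and 0.081.

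Without replicate 3 of the Ndufa4 KO the difference in Rpl14 was -0.20 ± 0.03 (adjusted p = 0.013), and Rpl39, a short protein of the exit tunnel, also passed at -0.18 ± 0.03 (adjusted p = 0.021). The members' median difference was then -0.07, and 6.65% of all genes passed, 2.2% lower and 4.45% higher. Leaving out any 1 of the WT or Ndufa4l3-miR147 KO libraries left 0 members, with adjusted p for Rpl14 of 0.085 to 0.15. Leaving out Ndufa4 KO replicate 1 gave 8 and replicate 2 gave 10, where Rpl14 had an adjusted p of 0.052. In these fits, too, the count of all genes that passed moved, over the range given below. Its share in each fit is not given here, so these counts cannot be set against it. The comparisons share libraries, the WT libraries in the first and second and the knockouts in the third, so their members are not independent evidence of each other.

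The likeness of the members to each other was lower without Ndufa4 KO replicate 3. Pearson's r of each member with the mean of the others over the 9 libraries had a median of 0.81, and of 0.26 over the 8 libraries without Ndufa4 KO replicate 3. All points share the fixed total of TPM. Rpl32 (0.98) and Rpl35 (0.98) were closest to the mean of the others, and their r without that library was 0.78 and 0.81. Rpl32 illustrates the pattern, with 1658 to 1777 TPM in 8 libraries and 2075 TPM in the last. The farthest were Rpl22l1 (-0.28), Rps12 (-0.18) and Rpl5 (-0.17), which include genes of low TPM and a gene with an identical copy.

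Genes around the ribosome were read from lists of their own. Of the subunits outside the symbol pattern, neither Fau (Rps30, fused to a ubiquitin-like protein) nor the scaffold Rack1 passed in any comparison. In the Ndufa4 KO against WT their differences were 0.00 and 0.10, with adjusted p of 0.99 and 0.24. Fau held 1012, 1289 and 1566 TPM in the Ndufa4 KO, on either side of its WT range of 1253 to 1278 TPM.

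Ribosome biogenesis genes, whose products make and modify ribosomal RNA and assemble the subunits, were read from a list of 59. In the Ndufa4 KO 14 of 59 rose and 0 fell against WT, where 2.83% of all genes rose and 5.76% fell, and their median change was 0.18 against -0.08 for all genes. Without replicate 3, 23 of 59 rose and 0 fell, the 14 among them, with a median of 0.21, where 5.54% of all genes rose. Gar1, a protein of the box H/ACA particles that guide pseudouridylation, held 36.8, 39.7 and 38.3 TPM in WT, 40.4, 41.9 and 42.3 TPM in the Ndufa4l3-miR147 KO and 52.6, 57.5 and 61.1 TPM in the Ndufa4 KO. All Ndufa4 KO libraries lay above all others, with a change of 0.56 ± 0.07 over WT (adjusted p = 0.0021). Nop2, a ribosomal RNA methyltransferase, rose by 0.43 ± 0.06 (adjusted p = 0.0037) and Mybbp1a, a nucleolar protein, by 0.33 ± 0.05 (adjusted p = 0.0085). These 3 passed against WT under all 26 alternative settings run. The other 11 were Nop58, Noc2l, Mrto4, Ftsj3, Rrs1, Ubtf, Ddx18, Rpf2, Nop56, Ncl and Wdr74, with changes of 0.24 to 0.52. Each of the 11 lost the call in some of the 26 alternatives, from 1 (Nop58) to 9 (Ncl) and 10 (Nop56 and Wdr74). All 11 lost it with only the 2 genotypes compared.

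Between the knockouts Gar1, Nop2 and Noc2l were lower in the Ndufa4l3-miR147 KO, by -0.45 ± 0.07, -0.31 ± 0.06 and -0.22 ± 0.04 (adjusted p of 0.010, 0.024 and 0.032), where 1.04% of all genes were lower. Of the 26 alternatives, Gar1 lost this call in 3 (adjusted p up to 0.069), among them leaving out replicate 1 or 2 of the Ndufa4l3-miR147 KO. Nop2 lost it in 8 (up to 0.13) and Noc2l in 9 (up to 0.17), in both with the replicate block and without any 1 of the WT or Ndufa4l3-miR147 KO libraries. In the Ndufa4l3-miR147 KO against WT, 0 of 59 biogenesis genes passed and 3 had an unadjusted p under 0.05, as did 917 of the 11133 genes kept. The median difference of the biogenesis genes there was 0.07, 51 of 59 were positive, and in 16 the KO libraries all lay above WT (11.9% of all genes).

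Translation factors encoded by TOP mRNAs gave 4 of 19 risen and 0 fallen in the Ndufa4 KO against WT, where 2.83% of all genes rose. Eef1a1, the factor that brings aminoacyl-tRNA to the ribosome, held 4974 to 5078 TPM in WT and 5779, 5519 and 5417 TPM in the Ndufa4 KO. Within this genotype it was thus highest in replicate 1, where 70 of the 77 subunit genes were highest in replicate 3. It changed by 0.15 ± 0.04 (adjusted p = 0.044). The call was lost in 14 of the 26 alternatives, and with quantile normalization the difference was -0.033 (adjusted p = 0.56). Eef1g, a subunit of its exchange factor, rose by 0.23 ± 0.05 (adjusted p = 0.026), Nap1l1, a histone chaperone, by 0.44 ± 0.10 (adjusted p = 0.026) and Hnrnpa1, an RNA-binding protein, by 0.23 ± 0.06 (adjusted p = 0.036). Eef1a1 was also lower in the Ndufa4l3-miR147 KO than in the Ndufa4 KO (-0.20 ± 0.04, adjusted p = 0.026). This call was lost in 11 of the 26 alternatives, among them the replicate block and leaving out any 1 of the WT or Ndufa4l3-miR147 KO libraries. With quantile normalization the difference was -0.025 (adjusted p = 0.71).

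Of the other initiation factors 3 of 27 rose and 0 fell in the Ndufa4 KO, against the same 2.83% of all genes. They were Eif2s2, part of the factor that binds the initiator tRNA (0.28 ± 0.06, adjusted p = 0.026), and Eif3j1 and Eif3d of the eIF3 group (0.44 ± 0.10 and 0.22 ± 0.05, adjusted p = 0.036 for both). Of 15 genes that control TOP mRNAs or mTORC1, 1 rose, the RNA-binding protein Cnbp (0.26 ± 0.06, adjusted p = 0.032). In this list 2 fell, where 5.76% of all genes did so: Tsc1, an inhibitor of mTORC1 (-0.52 ± 0.13, adjusted p = 0.039), and the kinase Rps6ka1 (-0.20 ± 0.05, adjusted p = 0.039). Tsc1 held 8.40 to 8.47 TPM in WT and 6.01, 6.64 and 4.37 TPM in the Ndufa4 KO. The genes named from these last lists and Eef1g, Nap1l1 and Hnrnpa1 lost the call in 5 of the 26 alternatives (Nap1l1) to 13 (Hnrnpa1 and Rps6ka1). Ribosome quality control genes gave 0 of 15, with 1 at an unadjusted p under 0.05, as were 2905 of the 11133 genes kept.

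These lists held 3, 19, 27, 15, 59 and 15 genes kept. Over them together 24 genes passed in the Ndufa4 KO against WT, where 8.59% of all genes passed. The count fell to 5, 4 and 6 without WT replicates 1, 2 and 3 and to 13 without Ndufa4l3-miR147 KO replicate 2. It rose to 41 without Ndufa4 KO replicate 3, where 14.2% of all genes passed. The count of all genes moved in the other fits too. Its share in each of those is not given here, so the lists' counts there cannot be set against it. In the Ndufa4l3-miR147 KO against WT 0 genes of these lists passed, where 0.431% of all genes did so. Without Ndufa4 KO replicate 3 Rps6ka1 passed there (-0.23, adjusted p = 0.017), where 1.78% of all genes did so. Of the macrophage markers 3 of 9 passed in the Ndufa4 KO against WT, where 8.59% of all genes did so. Cd14 (-0.84 ± 0.06, adjusted p = 0.00033) and Mertk (-0.51 ± 0.13, adjusted p = 0.049) fell and Lyz2 rose (0.24 ± 0.04, adjusted p = 0.011). Of the 26 alternatives, Cd14 passed in all, Lyz2 lost the call in 5 and Mertk in 11. The 9 markers summed to 9389 to 9522 TPM in WT and 9912 to 10353 TPM in the Ndufa4 KO. Their part in the differences of the ribosomal genes was not tested.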

How the data were processed

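Polyadenylated RNA of 9 libraries was analysed, 3 for each genotype, grouped by the genotype in the labels. The values were TPM deposited by the authors in 1 table. The tools kallisto, DESeq2 and edgeR and the builds mm10 and GRCm39 are listed, without version or role, per the submitters' processing notes. Which annotation was used, and how transcript values became gene values, is not stated there. The listed TPM of a library summed to 913497 to 921705, and 1 entry without a gene name was left out. TPM are shares of a fixed total, keep no read depth and depend on a modelled transcript length.

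The filter kept genes reaching 1 TPM in 3 or more libraries. On the log2(TPM + 1) scale, limma 3.58.1 (R 4.3.3) estimated a mean for each genotype from the 9 libraries together, with an intensity trend and Benjamini-Hochberg adjustment over all genes kept, two-sided, called at 0.05. A fold change on this scale understates that of low genes. Near-identical copies were sought with blastn 2.17.0 among GENCODE M21 transcripts (at least 95% identity over at least 70% of the shorter transcript and 150 bases, plus strand), which held 28004 of the table's symbols. All 88 members had a length and GC value for the correction of both. The fit was checked on simulated data.

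The members, gene lists and tests were chosen with earlier results of these data known. Genes named were the members that passed (up to 8 per direction) or else the 4 with the smallest p, the 6 most and 3 least abundant, the stalk genes and Rpsa, paralogs with their partners, the 3 members most and least like the mean of the others, and up to 3 genes of each list per direction. Others (the genes under 200 TPM, the copies, Rps6, Rpl39, the further biogenesis genes, Eef1a1 against WT and the markers) were chosen after their values were seen. Alternatives comprised pseudocounts of 0.1 and 5, other filters, scalings and models, leaving out each library, and adding copies. The values of some genes are not reported here.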

Additional observations from a re-analysis of the deposited data

How the results depend on the processing

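Of the named genes that passed, Eef1a1 alone turned direction, in the Ndufa4 KO against WT with quantile normalization (-0.033). Among those that did not pass, values near 0 changed sign there for Fau (-0.15 to 0.17), Rpl10 (-0.05 to 0.10) and Rpl36al (-0.16 to 0.09), and that of Rps12 did so in 1 setting (-0.44 to 0.09). The alternatives were 26 per comparison, 4 of them added after seeing the data (without Ndufa4 KO replicate 3 with a length and GC correction, with median-of-ratios scaling or with near-identical copies added, and the copies alone). The balance of all genes that passed did turn. For the Ndufa4 KO against WT it was 315 higher and 641 lower, and 492 and 442 with median-of-ratios scaling, 499 and 458 with quantile normalization, and 802 and 755 with median-of-ratios scaling without replicate 3. Between the knockouts it was 245 and 116, and 146 and 148 with median-of-ratios scaling. In the Ndufa4l3-miR147 KO against WT it was 27 and 21, and 13 and 17 without an intensity trend, 11 and 13 with the replicate block, 32 and 33 with length and GC removed too, and 6 or 7 against 7 to 9 without any 1 of the WT libraries or without Ndufa4l3-miR147 KO replicate 2 or 3. Counts of genes that passed moved as well, and the cause was not tested. TPM give no depth, so the precision of low members such as Rps12 cannot be stated.

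In the Ndufa4l3-miR147 KO against WT, 48 genes passed. The count was 538 with array weights, 30 without an intensity trend, 24 with the replicate block, 117 with length and GC removed, 306 with only these 2 genotypes, and 304, 188 and 203 under the first 3 added settings. Members passed under 1 setting only, array weights (1). The other lists gave 4 with array weights, 1 with length and GC removed, 1 with 2 genotypes, and 2, 1 and 1 under the added settings.

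In the Ndufa4 KO against WT, 956 genes passed. The count was 3045 with array weights, 1561 with length and GC removed, 238 with 2 genotypes, and 1770, 1557 and 1593 under the added settings. Of the members 5 passed. The count was 1 without a filter, 8 with a filter of 5 TPM, 2 with quantile normalization, 23 with array weights (20 higher, 3 lower), 1 without a trend, 1 with the replicate block, 13 with length and GC removed (12 higher, 1 lower) and 8 with the block too (7 and 1), 1 with 2 genotypes, and 10 (9 and 1) and 14 without replicate 3 with length and GC removed and with median-of-ratios scaling. Under the other settings no member fell. The other lists (24) gave 55 with array weights, 15 without a trend, 14 with the replicate block, 37 with length and GC removed, 3 with 2 genotypes, and 44, 48 and 41 under the added settings.

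Between the knockouts, 361 genes passed. The count was 1726 with array weights, 162 with the replicate block, 766 with length and GC removed, 64 with 2 genotypes, and 933, 706 and 753 under the added settings. Of the members 1 passed. The count was 0 without a filter, with median-of-ratios scaling, without a trend, with the replicate block and with 2 genotypes, 2 with quantile normalization, 20 with array weights (1 higher, 19 lower), 9 with length and GC removed (3 with the block too), and 5, 4 and 3 under the added settings. The other lists (4) gave 7 with median-of-ratios scaling, 7 with quantile normalization, 28 with array weights, 2 without a trend, 1 with the block, 11 with length and GC removed (7 with the block too), 0 with 2 genotypes, and 17, 20 and 12 under the added settings.

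Leaving out each library gave 13 to 198, 266 to 1586 and 82 to 740 genes in the 3 comparisons, 0 to 15 members in the Ndufa4 KO against WT and 0 to 10 between the knockouts. The other lists gave 0 to 1, 4 to 41 and 0 to 12. The summed TPM of the members moved to 73069 in WT and 72144 in the Ndufa4l3-miR147 KO with only the subunit genes, and to 73648 and 72793 with median-of-ratios scaling. Where 1 library of a group was left out, the rest shared 1 estimate of the spread.

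The replicate numbers did not pair libraries: same-numbered libraries of different genotypes correlated at -0.14 to 0.18 in their deviations and differently numbered ones at -0.16 to 0.13. Of the values for single genes under the alternatives, 857 stayed on their side of the threshold, 273 lost the call, 13 gained it and 1 changed direction.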

Other observations

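Many box C/D and H/ACA snoRNAs lie in introns of ribosomal protein genes. By the GENCODE M21 annotation, 30 of the 77 subunit genes had a snoRNA gene inside them. In the Ndufa4 KO against WT 3 of these 30 rose, and 2 of the other 47, with median changes of 0.12 in both, where 2.83% of all genes rose. With median-of-ratios scaling the counts were 4 and 0. The difference between these counts was not tested.

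The 4 symbols that matched the pattern but did not pass the filter were Rpl10l, Rpl39l, Rps12l1 and Rps12l2. Rpl10l, a testis form, ran from 0 to 1.12 TPM, with 1.12 TPM in Ndufa4 KO replicate 3. Rpl39l ran from 0.0812 to 0.803 TPM, and Rps12l1 was listed at 0 in all 9 libraries. Rps12l2 held 2.68 and 1.89 TPM in replicates 1 and 2 of the Ndufa4 KO and at most 0.680 TPM in the other 7 libraries. The retrocopy Rpl37rt ran from 0 to 56.1 TPM between libraries of the knockouts, while Rpl37 ran from 270 to 364 TPM.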
